A study of Mus musculus with 6 samples.

Results

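The 9 genes described here encode signals that hold blood stem and progenitor cells in the marrow or help to release them into the blood. They were chosen by gene symbol for the known mobilisation defect in diabetes, by a rule that uses no measured value, although earlier results of these data were known. They are Cxcl12, Kitl, Angpt1, Vcam1, Cxcr4, Kit, Tek, Csf3r and Osm. All 9 had a probe set that names exactly 1 gene, each had only 1 such set, and together they are 9 of 19938 genes that could be named on the array.

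In marrow, stromal and endothelial cells make CXCL12, KIT ligand and VCAM1, and stem and progenitor cells carry the matching receptors CXCR4 and KIT and the integrin VLA-4, which binds VCAM1. ANGPT1 acts through the receptor TIE2, the product of Tek, on endothelial cells and on stem cells. Granulocyte colony-stimulating factor (G-CSF) acts through its receptor, the product of Csf3r, and lowers CXCL12, VCAM1 and KIT ligand in the niche, after which stem cells leave. In mouse studies of diabetes, macrophage oncostatin M (Osm) has been described as a signal that keeps CXCL12 up and opposes this release.

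RNA of flushed femur and tibia marrow had been measured on 6 single-colour Affymetrix gene arrays, 3 wild type and 3 diabetic, all from males of 10 weeks with no further treatment. The genotype labels of both groups give the BKS background and name Leprdb, the db variant of the leptin receptor, and they differ in the sign alone, +/+ for wild type and -/- for diabetic animals. The db line lacks the long leptin receptor in every tissue and is obese as well as diabetic, which limits it as a model of diabetes on its own. The labels do not say whether animals were pooled for an array. The p values therefore measure only the spread between these 6 samples, and 3 arrays per group limit the precision.

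Values are log2 signals, so that a difference of 1 is a doubling. Array medians lay between 7.67 and 7.73, and the arrays correlated with each other at 0.990 to 0.994 over all probe sets. A level filter kept genes with a mean log2 signal of at least 7.52 over the 6 arrays, which left 11940 genes. Of the 9 genes, 7 were above it. Kitl and Tek were below it and were read from the same fit without the filter, over 19938 genes. The cells were whole marrow: all 11 tested neutrophil markers and the pan-leukocyte gene Ptprc (mean log2 signal 11.7 in both groups) were bright. Of 12 stromal markers, by contrast, 7 were below the filter, namely Lepr, Foxc1, Pdgfra, Nes, Adipoq, Il7 and Cxcl14. In such bulk samples, fewer cells of a type and less RNA per cell cannot be told apart.

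None of the 9 genes passed an adjusted p of 0.05 in limma, where the smallest adjusted p was 0.535, for Osm. Over all genes past the filter, 49 of 11940 passed, or 0.41%, and with no filter 57 of 19938 did, or 0.286%. At an unadjusted p under 0.05 there were 5 of the 9: Cxcr4, Kit, Tek and Osm were higher in diabetic marrow and Kitl was lower. This compares with 7.16% of the genes past the filter (3.99% higher and 3.17% lower) and with 5.9% of all genes (3.18% higher and 2.71% lower), and 3 of the 5 were past the filter. The same 5 genes were those whose diabetic and wild type arrays did not overlap. Over the genes past the filter 12.4% had groups that did not overlap, 6.99% higher and 5.38% lower, and over all genes 10.8% did, 6.01% higher and 4.81% lower. With 3 arrays against 3, the exact two-sided permutation test cannot go below 0.1, the value each of the 5 had.

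Over all 6 arrays the niche ligands Cxcl12, Kitl, Angpt1 and Vcam1 were on the lower side in diabetic marrow and the receptors Cxcr4, Kit and Tek on the higher side, by small amounts, but Angpt1 was at 0.044 without wild type replicate 3. The receptor gene Csf3r, at -0.04, and the ligand gene Osm, at 0.42, went the other way. Counting Osm with the higher receptors, 4 of the 9 genes were above 0, beside 52.4% of the genes past the filter and 51.7% of all genes. The differences of the 7 genes other than Csf3r and Osm lay between -0.18 for Kitl and 0.24 for Kit on the log2 scale. The median difference of the 9 genes was -0.04, beside 0.00 over all genes past the filter. When arrays were weighted by their estimated quality, 4 of the 9 genes passed, Osm, Cxcr4, Kit and Vcam1, but this setting called 1131 of 11940 genes, or 9.47%, and its weights had not converged.

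**Figure D1:**
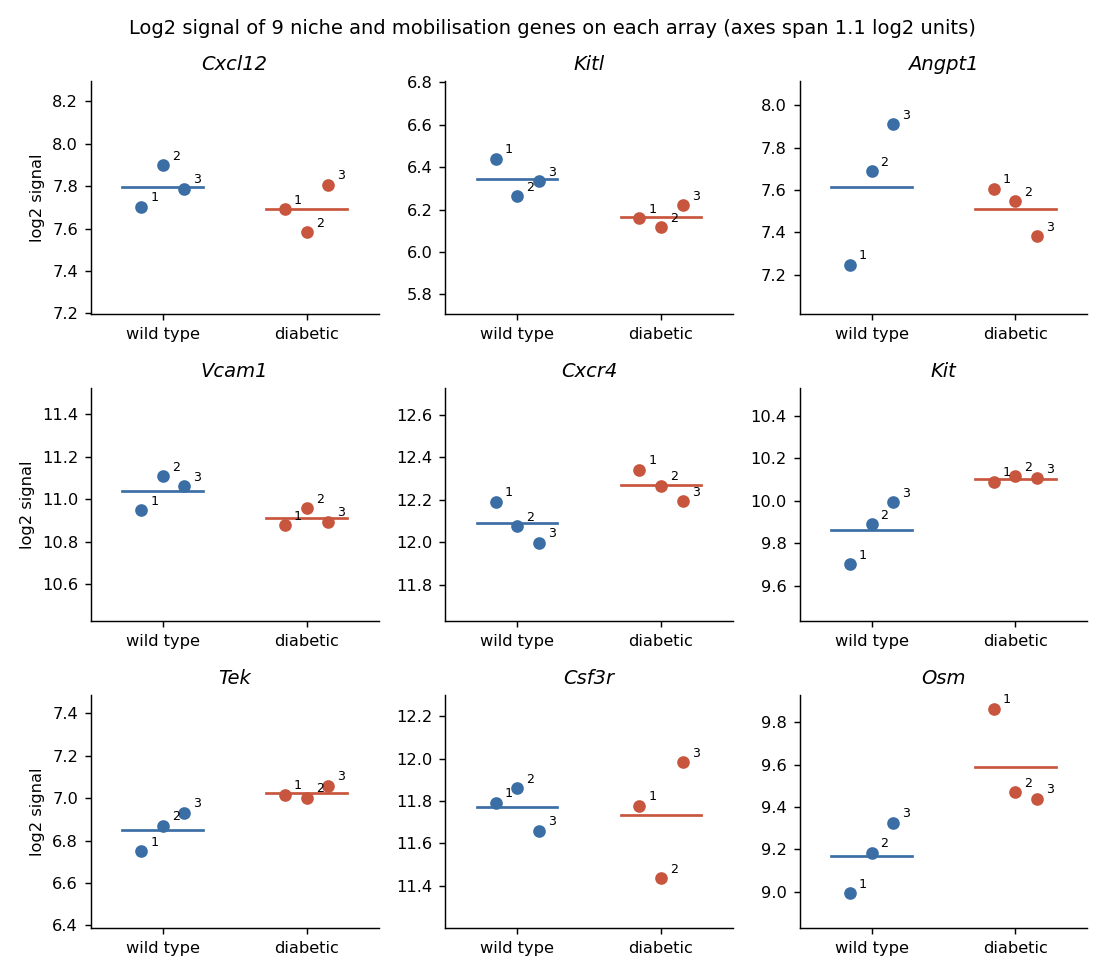
Log2 signal (vertical axis) of each of the 9 genes on the 3 wild type and 3 diabetic arrays; points are arrays, numbered by replicate, and bars are group means. Diabetic points of Cxcr4, Kit, Tek and Osm all lie above the wild type points and those of Kitl all lie below, while the groups overlap for Cxcl12, Angpt1, Vcam1 and Csf3r.

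CXCL12 is the chemokine that draws CXCR4-bearing cells to the niche. The log2 signal of Cxcl12 (probe set 10541075) was 7.704, 7.898 and 7.789 on wild type arrays 1 to 3 and 7.691, 7.584 and 7.807 on diabetic arrays 1 to 3. The groups overlapped, and diabetic array 3 was above 2 of the 3 wild type arrays. The difference was -0.10 ± 0.08 (SE, n = 3 per group), with a 95% interval from -0.29 to 0.08 and an adjusted p of 0.924 in limma. On the fold scale the interval runs from 1.22-fold lower to 1.06-fold higher.

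CXCR4 is the receptor of CXCL12 on stem cells, B cell precursors and neutrophils, and its loss or blockade releases these cells into the blood. Cxcr4 (probe set 10357472) had log2 signals of 12.19, 12.08 and 12.00 in wild type and 12.34, 12.27 and 12.19 in diabetic marrow. Every diabetic value was higher, but the gap between the lowest diabetic and the highest wild type array was only 0.0040. Its difference was 0.18 ± 0.07 (SE, n = 3 per group), a 1.13-fold level, with a 95% interval from 0.01 to 0.35 and an adjusted p of 0.659 in limma. Cxcr4 and Cxcl12 ran against each other over the 6 arrays, with a Pearson r of -0.67, and their deviations from the group means had an r of -0.51.

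The sequences in front of these genes are shown because ligand and receptor leaned in opposite directions, together with that of Kit, a receptor of another niche ligand with a similar lean. Capitals mark 3 short motifs on either strand: a hypoxia core (ACGTG or GCGTG), a GC box (GGGCGG) and a GATA core (GATAA). The stretches are the 250 bases before the RefSeq start site, read along the gene's own strand in build GRCm38.p6, at chr6:117168285-117168534 (plus strand) for Cxcl12, chr1:128592300-128592549 (minus strand) for Cxcr4 and chr5:75574737-75574986 (plus strand) for Kit.
Cxcl12: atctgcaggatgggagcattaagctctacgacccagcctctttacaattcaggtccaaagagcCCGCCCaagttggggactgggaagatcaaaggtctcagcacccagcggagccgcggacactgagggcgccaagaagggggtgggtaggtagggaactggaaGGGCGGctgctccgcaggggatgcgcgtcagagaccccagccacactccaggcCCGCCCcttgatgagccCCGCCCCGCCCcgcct
Cxcr4: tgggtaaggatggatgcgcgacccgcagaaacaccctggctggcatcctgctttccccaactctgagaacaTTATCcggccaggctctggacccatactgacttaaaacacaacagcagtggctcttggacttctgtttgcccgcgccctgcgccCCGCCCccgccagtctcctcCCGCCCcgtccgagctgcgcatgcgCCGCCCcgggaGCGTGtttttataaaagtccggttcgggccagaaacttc
Kit: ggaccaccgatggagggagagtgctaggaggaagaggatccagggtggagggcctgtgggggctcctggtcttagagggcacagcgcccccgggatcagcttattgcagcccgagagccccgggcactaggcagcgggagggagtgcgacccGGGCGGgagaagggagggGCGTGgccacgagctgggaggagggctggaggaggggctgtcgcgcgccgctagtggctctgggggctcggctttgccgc

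The Cxcl12 stretch held 5 GC boxes, of which 2 overlap next to the start site, and no hypoxia or GATA core. The Cxcr4 stretch held 3 GC boxes, 1 hypoxia core, 39 bases before the start, and 1 GATA core, 179 bases before it. The Kit stretch held 1 GC box and 1 hypoxia core, 80 bases before the start. Among 27025 genes with a stretch of the same length, 32.7% held a GC box, 38.3% a hypoxia core and 23.1% a GATA core. These are matches of letters, not binding sites. Of the 9 genes, 6 had a promoter entry in the RefSeq table. Among those not shown, the stretch of Kitl, which leaned lower, held 3 GC boxes and 1 hypoxia core. The stretches of Tek, which leaned higher, and of Csf3r held none of these motifs. Those of Kitl, Tek and Csf3r overlapped the annotated span of their own gene, so they do not lie wholly in front of it. Kit had another entry, at chr5:75574741-75574990, which also overlapped its gene and held 1 GC box and 1 hypoxia core.

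Genes around CXCR4 were read from a list of 13, of which 11 were tested, 6 higher and 5 lower, with a median difference of 0.01 and 0 past the adjusted threshold. The member with the smallest p was Arrb2, beta-arrestin 2, which ends receptor signalling, at 0.23 ± 0.08 (SE, n = 3 per group; adjusted p 0.569 in limma). Grk6, a kinase that marks active CXCR4 for arrestin, was at 0.12 ± 0.07, and Rgs18, a brake on G proteins in myeloid and megakaryocytic cells, also at 0.12 ± 0.07. Rgs1, a brake of the same family in lymphocytes, was at 0.88 ± 0.51. Its wild type values were 7.12, 7.26 and 7.24 and its diabetic values 8.90, 8.69 and 6.67, so that diabetic array 3 was the lowest of all 6. Rgs1 passed the level filter only through diabetic arrays 1 and 2. Dpp4, the enzyme that trims CXCL12, was at -0.14 ± 0.25, and Ackr3, the scavenger receptor of CXCL12, was below the filter.

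KIT ligand, the product of Kitl and also called stem cell factor, keeps stem and progenitor cells alive, and only its membrane-bound form is displayed on niche cells. Kitl (probe set 10366052) had log2 signals of 6.44, 6.26 and 6.33 in wild type and 6.16, 6.12 and 6.22 in diabetic marrow. All diabetic values were lower, with a gap of 0.043 between the groups, on a gene whose signal was dim on every array. The difference was -0.18 ± 0.07 (SE, n = 3 per group), with a 95% interval from -0.34 to -0.02 and an adjusted p of 0.786 in limma over the 19938 genes fitted without the filter.

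KIT is the receptor tyrosine kinase for this ligand and marks stem cells, early progenitors and mast cells. For Kit (probe set 10522530) the log2 signals were 9.70, 9.89 and 9.99 in wild type and 10.09, 10.12 and 10.11 in diabetic marrow. The diabetic arrays lay within 0.013 (SD) of each other, whereas the wild type arrays had an SD of 0.15, with array 1 the lowest. Kit differed by 0.24 ± 0.08 (SE, n = 3 per group), a 1.18-fold level, with a 95% interval from 0.06 to 0.43 and an adjusted p of 0.561 in limma. Kit and Kitl ran in opposite directions over the 6 arrays, with a Pearson r of -0.88, the lowest of the 36 pairs among the 9 genes, and of -0.63 for deviations from the group means.

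Among the partners of KIT inside the cell, 10 genes were tested, of which 8 were higher and 2 lower, the median was 0.06 and 0 passed. Vav1, a signalling protein of blood cells, was at 0.25 ± 0.11 (SE, n = 3 per group), Cbl, which tags active KIT for breakdown, at 0.17 ± 0.08, Grb2, an adaptor, at 0.10 ± 0.07 and Mitf, a transcription factor of mast cells, at 0.08 ± 0.08. Their adjusted p values in limma ran from 0.708 to 0.9505.

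Markers of the cells that carry KIT were set beside it. Of 10 stem and progenitor markers with a probe set, 7 were tested, 5 higher and 2 lower, with a median of 0.06 and 0 past the threshold. Flt3, a cytokine receptor of early multipotent and lymphoid progenitors, was at 0.23 ± 0.06 (SE, n = 3 per group; adjusted p 0.434 in limma). Gata2 and Hlf, transcription factors of stem cells, were at 0.10 ± 0.07 and 0.08 ± 0.07, Meis1 at 0.06 ± 0.08, and Cd34, the classical progenitor surface marker, at -0.00 ± 0.09. The list mean was 8.78 to 8.85 in wild type and 8.85 to 8.91 in diabetic marrow. Over the 6 arrays it had a Pearson r of 0.89 with Kit, but also of 0.93 with Tek and 0.93 with Osm. For deviations from the group means its r with Kit was 0.72, below the 0.90 of monocyte and macrophage markers. Procr, Mecom and Myct1 were below the filter. Of 6 tested mast cell and basophil markers, 5 were on the lower side, with a median of -0.10 and 0 past the threshold. Mcpt8, a basophil protease, was at -0.18 ± 0.10, Fcer1a, the binding chain of the IgE receptor, at -0.38 ± 0.23, Ms4a2, its beta chain, at -0.11 ± 0.08 and Prss34, another basophil protease, at -0.08 ± 0.11. Their list mean was 10.4 on all wild type arrays and 10.1 to 10.5 on the diabetic ones. The part of either cell group in the Kit difference was not tested.

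ANGPT1 steadies vessels and has been described as a signal of quiescence for stem cells. Angpt1 (probe set 10428376) varied most within a group, at 7.25, 7.69 and 7.91 in wild type and 7.61, 7.55 and 7.38 in diabetic marrow. All 3 diabetic values lay inside the wild type range. The difference was -0.10 ± 0.16 (SE, n = 3 per group), with a 95% interval from -0.47 to 0.26 and an adjusted p of 0.980 in limma. Without wild type replicate 3 it was 0.044, and without wild type replicate 1 it was -0.29, so its direction hung on a single array. The diabetic mean of 7.51 was just under the filter. Megakaryocytes make ANGPT1, and the mean of their 6 tested markers was 9.68, 9.97 and 10.5 in wild type and 10.0, 10.1 and 9.81 in diabetic marrow, the same order of arrays as Angpt1 in wild type. The Pearson r was 0.92 over the 6 arrays and 0.93 for deviations from the group means. Of these markers, 1 was higher and 5 lower, with a median of -0.09, which was 0.17 without wild type replicate 3 and -0.29 without wild type replicate 1. Gp5, Gp9 and Itga2b, parts of platelet adhesion receptors, were at -0.15 ± 0.18, -0.11 ± 0.20 and 0.07 ± 0.12, and the platelet chemokine gene Ppbp at -0.11 ± 0.25 (SE, n = 3 per group).

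TIE2, encoded by Tek, is the receptor of ANGPT1. Tek (probe set 10505954) was dim, with log2 signals of 6.751, 6.871 and 6.932 in wild type and 7.016, 7.002 and 7.058 in diabetic marrow. The groups were apart by 0.070. Tek differed by 0.17 ± 0.07 (SE, n = 3 per group), a 1.13-fold level, with a 95% interval from 0.02 to 0.33 and an adjusted p of 0.791 in limma over the genes fitted without the filter. Its values ordered the arrays nearly as those of Kit did: the Pearson r of 0.98 was the highest of the 36 pairs, and it was 0.95 for deviations from the group means. Of the other genes of this axis, Tie1, the related receptor, was at -0.09 ± 0.11 and Dok2, an adaptor of TIE2, at 0.01 ± 0.06. Angpt2, Angpt4 and Ptprb, the phosphatase of TIE2, were below the filter.

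Endothelial cells carry TIE2. Of 7 tested endothelial markers, 2 were on the higher and 5 on the lower side, with a median of -0.06 and 0 past the threshold. Pecam1, an adhesion molecule also found on blood cells, was at -0.11 ± 0.08 (SE, n = 3 per group), Esam at -0.10 ± 0.07, Cdh5, the cadherin of endothelial junctions, at -0.06 ± 0.06, and Robo4, a guidance receptor of endothelium, at 0.06 ± 0.07. Their mean was 8.62 to 8.77 in wild type and 8.61 to 8.68 in diabetic marrow, and Kdr, Flt4, Emcn and Ramp2 were below the filter. This mean had a Pearson r with Tek of 0.09 over the 6 arrays and of 0.78 for deviations from the group means. The part of endothelial cells in the Tek difference was not tested.

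The stromal markers that could be tested, 5 of 12, were 3 higher and 2 lower, with a median of 0.02. Pdgfrb, a growth factor receptor of perivascular cells, was at 0.28 ± 0.08 (SE, n = 3 per group; adjusted p 0.464 in limma). Ebf3, a transcription factor of CXCL12-rich stromal cells, was at -0.11 ± 0.06 and passed the filter only through its wild type values. Col1a1 and Col3a1, fibrillar collagens, were at 0.10 ± 0.11 and -0.05 ± 0.07. The mean of the 5 was 8.01 to 8.11 in wild type and 8.08 to 8.16 in diabetic marrow. Lepr, which marks the stromal cells that make most CXCL12 and KIT ligand in mouse marrow, was dim, with a mean of 5.80 ± 0.14 (SD, n = 3) in wild type and of 5.69 ± 0.04 (SD, n = 3) in diabetic marrow. Only 2 osteoblast markers were tested, Alpl, the alkaline phosphatase, at -0.38 ± 0.12 and Col1a2 at 0.06 ± 0.11. Ibsp, Sp7 and Dmp1 were below the filter. Over the 6 arrays the mean of the 5 stromal markers had a Pearson r of -0.69 with Cxcl12 and -0.18 with Kitl. For deviations from the group means these were -0.58 and 0.49. The part of stromal cell number in the values of Cxcl12 and Kitl was not tested.

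**Figure D2:**
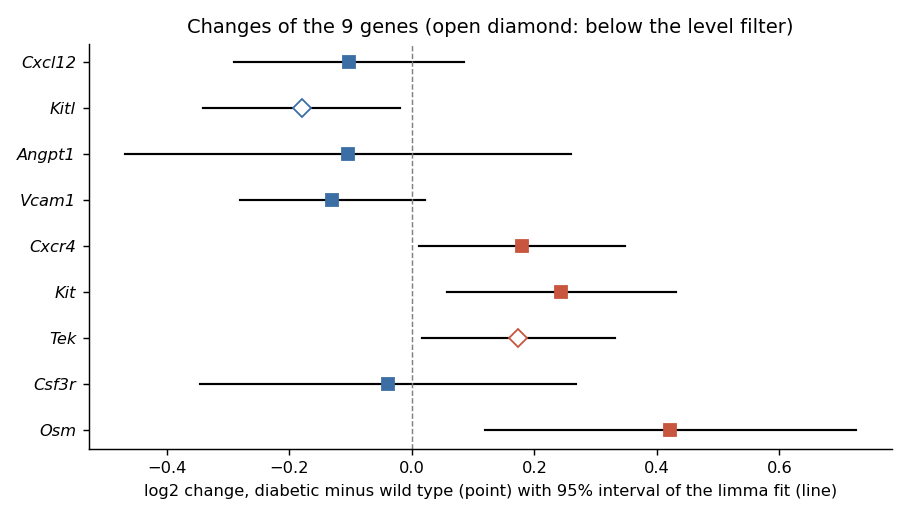
Log2 difference between diabetic and wild type marrow (horizontal axis) of each of the 9 genes, with points for the estimate and lines for the 95% interval of the limma fit; filled squares are genes above the level filter and open diamonds the dim genes Kitl and Tek. Intervals of Kitl, Cxcr4, Kit, Tek and Osm leave out 0 before adjustment for the number of genes tested, and no gene passed after it.

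VCAM1 is the adhesion molecule that VLA-4 binds, present on stromal and endothelial cells and on marrow macrophages. Vcam1 (probe set 10501608) had log2 signals of 10.95, 11.11 and 11.06 in wild type and 10.88, 10.96 and 10.89 in diabetic marrow. Diabetic array 2 was just above wild type array 1, so the groups overlapped, and the other 2 diabetic arrays were the lowest. It differed by -0.13 ± 0.07 (SE, n = 3 per group), with a 95% interval from -0.28 to 0.02 and an adjusted p of 0.771 in limma. Over the 6 arrays Vcam1 and Cxcr4 had a Pearson r of -0.84, and -0.59 for deviations from the group means.

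Marrow macrophages also carry VCAM1. Of 11 tested monocyte and macrophage markers, 8 were on the lower side and 3 on the higher, with a median of -0.32, and 0 passed the adjusted threshold, while 7 of the lower and 1 of the higher had an unadjusted p under 0.05, beside 3.17% lower and 3.99% higher over the genes past the filter. Without wild type replicate 3 the median was -0.21. C1qb, a chain of complement C1q made by resident macrophages, was at -0.62 ± 0.12 (SE, n = 3 per group), Siglec1, which marks macrophages that hold stem cells in their niche in mice, at -0.34 ± 0.07, and Mrc1, the mannose receptor, at -0.34 ± 0.09. Cd163, the haemoglobin scavenger receptor, was at 0.34 ± 0.06, the smallest adjusted p of the list being 0.066 in limma. Adgre1, the F4/80 antigen, was at 0.27 ± 0.14 and Csf1r, the receptor of macrophage growth factor, at -0.01 ± 0.07, so the markers did not shift as a block. The list mean was 9.69 to 9.88 in wild type and 9.55 to 9.62 in diabetic marrow. Its Pearson r over the 6 arrays was 0.85 with Vcam1 and -0.97 with Cxcr4. For deviations from the group means it was 0.60 with Vcam1, -0.93 with Cxcr4 and 0.90 with Kit. The part of these cells in the Vcam1 and Cxcr4 differences was not tested.

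The partners of VCAM1 and the other adhesion genes gave 13 tested genes, 9 higher and 4 lower, with a median of 0.10 and 0 past the threshold. Fn1, fibronectin, a matrix ligand of VLA-4, had the largest difference, with log2 signals of 12.7, 12.3 and 12.2 in wild type and 13.1, 12.9 and 13.2 in diabetic marrow. Every diabetic array was higher, and the difference was 0.65 ± 0.13 (SE, n = 3 per group; adjusted p 0.132 in limma). Itga9, the alpha chain of another integrin that binds VCAM1, was at 8.54, 8.41 and 8.29 in wild type and 8.02, 8.09 and 7.88 in diabetic marrow. Here every diabetic array was lower, and the difference was -0.41 ± 0.09 (limma adjusted p 0.173). The chains of VLA-4 itself, Itga4 and Itgb1, were at 0.10 ± 0.07 and 0.20 ± 0.08. Itgb2, the shared beta chain of the leukocyte integrins, was at 0.11 ± 0.07.

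The G-CSF receptor, encoded by Csf3r, drives neutrophil production and is the target of the drug most used to mobilise stem cells. Csf3r (probe set 10508074) had log2 signals of 11.8, 11.9 and 11.7 in wild type and 11.8, 11.4 and 12.0 in diabetic marrow. Diabetic arrays 2 and 3 were the lowest and the highest of all 6. The difference was -0.04 ± 0.13 (SE, n = 3 per group), with a 95% interval from -0.34 to 0.27 and an adjusted p of 0.993 in limma. It became 0.11 without diabetic replicate 2 and 0.01 without wild type replicate 2, so no direction can be given. Csf3r and Cxcl12 ran together, with a Pearson r of 0.73 over the 6 arrays and 0.79 for deviations from the group means. The 11 tested neutrophil markers had a median of 0.01, with 6 higher and 5 lower, and a list mean of 13.1 to 13.2 in wild type and 13.1 to 13.3 in diabetic marrow. Mmp25, a membrane-bound protease of neutrophils, was at 0.28 ± 0.09, Cd177, a surface antigen of mature neutrophils, at 0.16 ± 0.10, Retnlg at 0.14 ± 0.08 and S100a8, a calcium-binding alarmin, at 0.05 ± 0.08. With Csf3r this list had a Pearson r of 0.76 over the 6 arrays and 0.88 for deviations from the group means. The mast cell and basophil list ran closer to Csf3r, at 0.84 and 0.93. The part of either list in the Csf3r values was not tested.

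Downstream of that receptor, 9 of 10 tested genes were higher and 1 lower, with a median of 0.10 and 0 past the threshold. Jak2, a kinase bound to cytokine receptors, was at 0.17 ± 0.06 (SE, n = 3 per group; adjusted p 0.564 in limma). Cebpa and Cebpb, transcription factors of granulocyte production, were at 0.13 ± 0.07 and 0.16 ± 0.10, and Stat5b at 0.10 ± 0.06. Stat3, the main signal transducer of the receptor, was at 0.10 ± 0.09 and its brake Socs3 at 0.05 ± 0.10. Csf3, which encodes G-CSF, was below the filter, at 0.04 ± 0.07.

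Oncostatin M is a cytokine of macrophages and neutrophils in the interleukin 6 family. Osm (probe set 10373912) had the largest difference of the 9 genes, with log2 signals of 8.99, 9.18 and 9.33 in wild type and 9.86, 9.47 and 9.44 in diabetic marrow. All diabetic arrays were above all wild type arrays, by at least 0.11, and diabetic array 1 stood above the other 2. Osm differed by 0.42 ± 0.13 (SE, n = 3 per group), a 1.34-fold level, with a 95% interval from 0.12 to 0.72 and an adjusted p of 0.535 in limma. Leaving out 1 array gave 0.29 to 0.50, the smaller value without diabetic replicate 1.

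Of the genes around oncostatin M, Osmr, its specific receptor chain, was below the filter, and so were the receptor gene Cntfr and the related ligands Lif and Il6. Il6st, the shared chain gp130, was at -0.09 ± 0.08 (SE, n = 3 per group), Lifr, the receptor chain of leukemia inhibitory factor, at -0.14 ± 0.08 and Il6ra at 0.10 ± 0.10, with 0 of 3 past the threshold.

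Immediate early and stress genes respond within minutes to handling and to cytokines. All 10 tested genes of that list were on the higher side, with a median of 0.28 that was 0.14 without diabetic replicate 1 and 0.45 without diabetic replicate 3, and 1 passed, Dusp1, a phosphatase of MAP kinases, which rose by 0.76 ± 0.10 (SE, n = 3 per group; adjusted p 0.029 in limma). Ier2 was at 0.41 ± 0.08, Ier3 at 0.45 ± 0.14 and Junb, a subunit of AP-1, at 0.26 ± 0.08. The list mean was 8.89, 8.84 and 8.65 in wild type and 9.40, 9.20 and 8.77 in diabetic marrow. Diabetic array 3 thus lay inside the wild type range, whereas its Osm value did not. The Pearson r over the 6 arrays was 0.70 with Osm and 0.89 with Cxcr4, and 0.41 and 0.82 for deviations from the group means. The part of handling in these differences was not tested.

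Chemokines acting on CXCR2 draw neutrophils and progenitors out of the marrow. Cxcl2, a ligand of CXCR2, was at 7.72, 8.11 and 7.19 in wild type and 9.59, 9.12 and 7.85 in diabetic marrow. Diabetic arrays 1 and 2 were high and diabetic array 3 lay inside the wild type range. The difference was 1.18 ± 0.42 (SE, n = 3 per group; adjusted p 0.603 in limma). Ccl3, an inflammatory chemokine, was at 0.79 ± 0.37, while Cxcr2 and Cxcl1 were at 0.04 ± 0.11 and 0.00 ± 0.06. All 4 tested genes were on the higher side, with a median of 0.42, and 0 passed. The 2 genes of the list below the filter, Cxcl5 and Cxcl3, were at -0.24 ± 0.09 and -0.05 ± 0.06, and with them the median was 0.02. The mean of the 4 tested genes had a Pearson r of 0.92 with Cxcr4 over the 6 arrays.

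Proteases that cut CXCL12, VCAM1 and KIT, with their inhibitors, gave 8 higher and 3 lower of 11 tested genes, a median of 0.08 and 0 past the threshold. Serpinb1a, an inhibitor of neutrophil elastase, was at 0.33 ± 0.09 (SE, n = 3 per group; adjusted p 0.434 in limma). Mmp8 and Mmp9, granule metalloproteases, were at 0.12 ± 0.08 and 0.11 ± 0.07, Plaur, the urokinase receptor, at 0.15 ± 0.09. Elane, Ctsg and Prtn3, the serine proteases of neutrophil granules, were at -0.05 ± 0.10, 0.12 ± 0.10 and -0.10 ± 0.14.

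Sphingosine 1-phosphate guides cells from marrow to blood, and its 8 tested genes were 5 higher and 3 lower, with a median of 0.03. S1pr3, a receptor, was at -0.13 ± 0.06 (SE, n = 3 per group), Sphk2, a kinase that makes the lipid, at -0.11 ± 0.05, Sgpl1, the lyase that degrades it, at -0.12 ± 0.07, and S1pr4, a receptor of blood cells, at 0.17 ± 0.10. Clock genes, which time the daily cycle of Cxcl12 in mice, were 3 higher and 3 lower of 6 tested, with a median of -0.00. Per1, which also responds to glucocorticoids, was at 0.40 ± 0.07 (limma adjusted p 0.109), and Arntl, Per2 and Nr1d1 were at -0.06 ± 0.06, 0.05 ± 0.06 and -0.03 ± 0.06. Over all 10 pathway lists, 54 of 78 tested genes were higher and 24 lower, with a median of 0.06. Of all genes past the filter 52.4% were higher, and the lists were chosen with earlier results of these data known. At an unadjusted p under 0.05 there were 8, or 10.3%, beside 7.16% of all genes past the filter, and 0 passed after adjustment in limma.

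**Figure D3:**
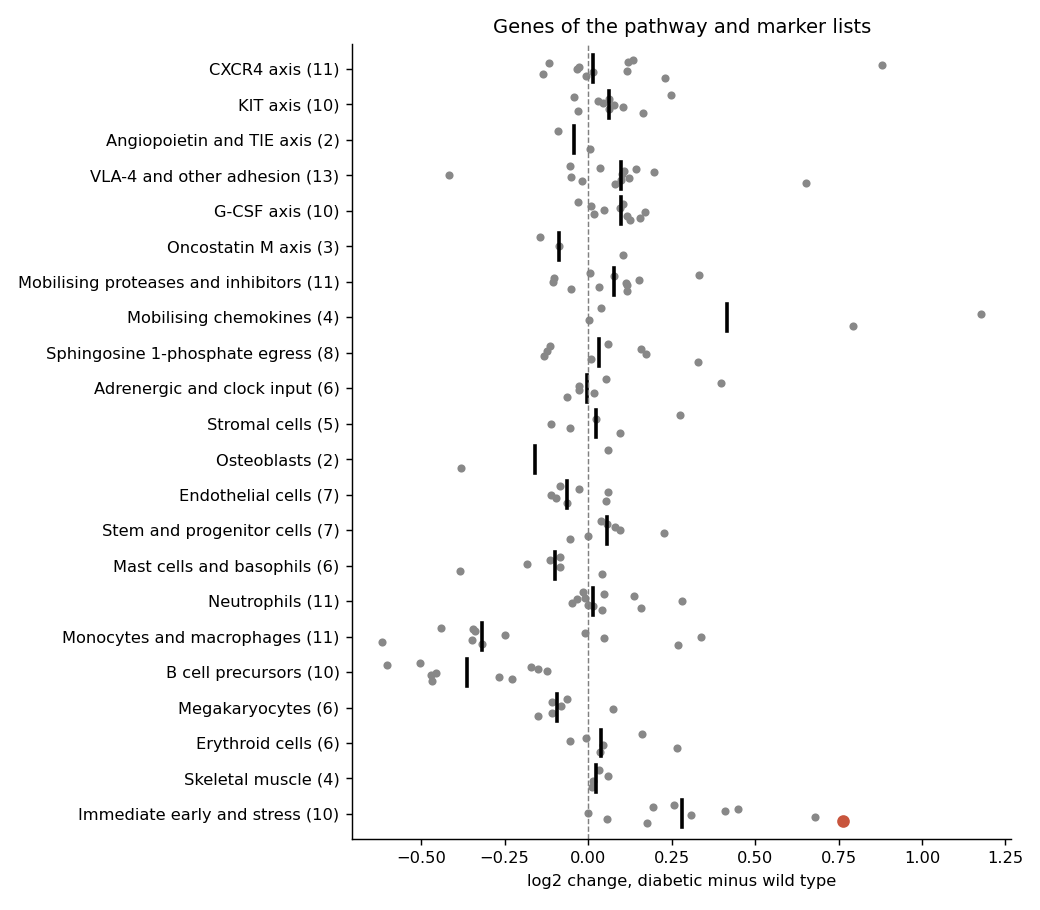
Log2 difference between diabetic and wild type marrow (horizontal axis) of the tested genes in 10 pathway lists and 12 cell type and stress lists, with the number of tested genes in brackets; grey points are genes, black bars list medians and the large red point the gene past an adjusted p of 0.05. That point is Dusp1, at 0.76, and the lowest list medians are those of B cell precursors, at -0.36, and of monocytes and macrophages, at -0.32, an order that holds for all 6 arrays together, since without wild type replicate 1 the B cell precursor median was -0.11.

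Markers of some blood cell types varied between arrays of the same group. The mean of the 10 tested B cell precursor markers was 11.4, 11.1 and 10.3 in wild type and 10.6, 10.8 and 10.4 in diabetic marrow, and erythroid markers ran from 12.0 to 12.5 in wild type. All 10 B cell precursor markers were on the lower side, with a median of -0.36 and 0 past the threshold. The median was -0.11 without wild type replicate 1 and -0.63 without wild type replicate 3. The recombinase gene Rag1 was at -0.60 ± 0.21 (SE, n = 3 per group), and Dntt, Blnk and Vpreb3 at -0.47 ± 0.25, -0.47 ± 0.26 and -0.50 ± 0.32. For deviations from the group means, this list had a Pearson r of 0.82 with Cxcr4, which these cells carry, and of -0.85 with Kit and -0.90 with Tek. Over the 6 arrays the r was 0.11 with Cxcr4, -0.79 with Kit and -0.80 with Tek. The part of these cells in the differences was not tested. Car1, an erythroid carbonic anhydrase, was at 0.27 ± 0.08, and Tfrc, Alas2 and Klf1 at 0.16 ± 0.16, 0.04 ± 0.08 and -0.05 ± 0.20. Muscle genes, kept as a control for tissue on the bone, had a median of 0.02, with Mb, Tnnt3, Ckm and Acta1 between 0.01 and 0.06. Such correlations were not particular to B cell precursors. For deviations from the group means, the muscle list had an r of 0.91 with Cxcr4, -0.94 with Kit and -0.88 with Tek. Over the 6 arrays these were 0.74, -0.32 and -0.25. The 2 tested osteoblast markers had an r of 0.99 with Cxcr4 for deviations and of 0.14 over the 6 arrays.

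**Figure D4:**
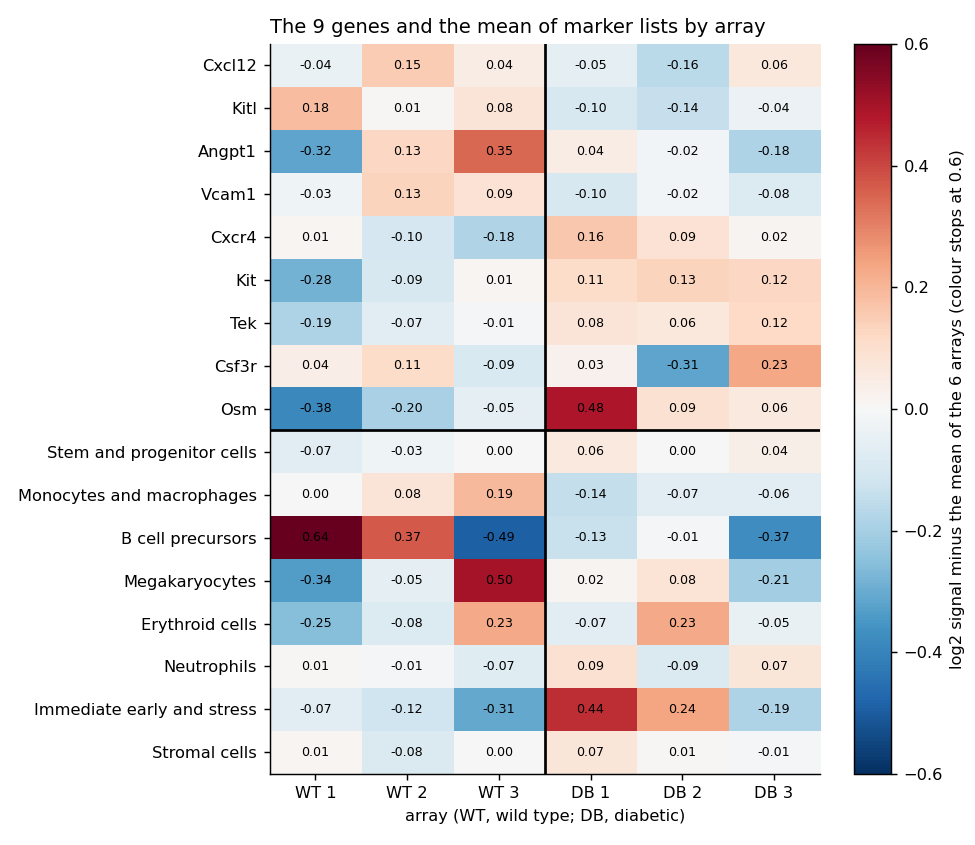
Log2 signal minus the mean of the 6 arrays (colour and printed value) for the 9 genes, above the line, and for the mean of 8 marker lists, below it, on each wild type (WT) and diabetic (DB) array. Kit and Tek are lowest on wild type array 1, at -0.28 and -0.19, where B cell precursor markers are highest, at 0.64, and Osm and the immediate early genes are both highest on diabetic array 1, at 0.48 and 0.44.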

How the data were processed

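Log2 signals, 1 per probe set and array, are what the authors deposited. The submitters' processing notes name RMA and Affymetrix Expression Console as the tools. No version or genome build is stated in the sources used. Since RMA brings all arrays to 1 distribution, a shift common to most genes would be removed. Of 35556 probe sets, 21789 had 1 gene symbol in the platform annotation, 1621 several and 12146 none. For the 999 genes with more than 1 set, the set with the highest mean over all 6 arrays was used. Of 19938 symbols, 19919 matched RefSeq.

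The level filter was the 40th percentile of the sets with 1 symbol. Groups came from the sample titles. Diabetic and wild type arrays were compared by limma (version 3.58.1, R 4.3.3), using lmFit and eBayes without covariates. Adjustment of p was by Benjamini-Hochberg over every gene in the fit. Levels carry SDs and differences SEs of the fit. The fit was tested on simulated data with planted changes. All of these were larger than the differences of the 9 genes, so the test does not show how often changes of that size are found. Named genes were the 9 genes, up to 4 of each of 22 lists by smallest p, any list gene past the threshold, and the 3 genes most like each of the 9 above the filter. Others, such as Itga4, Dpp4, Elane, Stat3, Cd34, Adgre1 and Csf1r, were added after their values were seen. The 9 genes and the lists were chosen with earlier results of these data known. Of 217 list entries, 199 had a probe set with 1 symbol. Correlations are Pearson's r over 6 arrays, given as descriptions, since all genes share those arrays. The alternatives tried were other filters, scalings, gene summaries, variance settings, array weights, a replicate block and leaving out each array. Python 3.11.15 and matplotlib 3.10.9 drew the figures. An allele in the genotype labels is not reported here.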

Additional observations from a re-analysis of the deposited data

How the results depend on the processing

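Array weights were the only alternative under which any of the 9 genes passed the adjusted threshold. The others were 3 changes of the level filter (none, the 60th percentile, and a percentile over all named probe sets, which was added after seeing the data), median centring, quantile normalization repeated on the deposited values, averaging a gene's probe sets, robust eBayes with a trend, a replicate block and leaving out each array. With array weights Osm was at 0.57, Cxcr4 at 0.23, Kit at 0.22 and Vcam1 at -0.20, with adjusted p from 0.00905 to 0.0280 in limma, and 572 genes were called higher and 559 lower. The weights ran from 0.283 to 6.78, and the fit of the weights stopped before it converged. Of 144 values of the 9 genes under alternatives, 3 changed direction: Angpt1 was 0.044 when wild type replicate 3 was left out, and Csf3r was 0.01 when wild type replicate 2 was, or 0.11 when diabetic replicate 2 was. The cause was not tested. At an unadjusted p under 0.05 there were 2 of the 9 genes without diabetic replicate 1 or 2, 3 without wild type replicate 2, and 4 or 5 without any other array. The 5 without wild type replicate 1 were not the same 5 as in the main fit: Kitl and Tek dropped out, and Angpt1 and Vcam1 came in. When 1 array was left out, Csf3r ran from -0.16 to 0.11, Angpt1 from -0.29 to 0.04, Cxcl12 from -0.16 to -0.05, Kitl from -0.22 to -0.13, Tek from 0.12 to 0.21, Kit from 0.16 to 0.31 and Cxcr4 from 0.13 to 0.23.

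Counts of called genes were 10 higher and 39 lower. The higher count was 6 with the filter at the 60th percentile and 6 with median centring, 1 with the replicate block and 0 over all probe sets, where the lower counts were 29, 31, 1 and 1. Leaving out 1 array gave 0 to 12 higher and 2 to 57 lower. Together, 13 genes passed when wild type replicate 2 was left out, and 5, 3 and 12 when diabetic replicate 1, 2 or 3 was. Fewer arrays or more features tested are part of these alternatives. Same-numbered arrays deviated together at an r of 0.33, -0.04 and -0.05. With 3 arrays per group, these values cannot settle whether the numbers pair the arrays, and the labels do not say. The replicate block brought the total to 2 calls from 49. Only the arrays numbered 1 correlated best with their own number. When 1 array was left out, list medians crossed 0 for megakaryocytes (-0.29 to 0.17), erythroid cells (-0.06 to 0.23), neutrophils (-0.01 to 0.06), the angiopoietin axis (-0.10 to 0.03), sphingosine 1-phosphate (-0.02 to 0.05), clock genes (-0.03 to 0.02) and muscle (-0.01 to 0.08).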

Other observations

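Tek and Lepr lie on the same chromosome, 4. In the RefSeq gene order 99 annotated genes separate Tek from Lepr, and Csf3r lies farther off, with 565 genes between it and Lepr. Leprdb is named in both genotype labels.

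For the 7 of the 9 genes above the filter, the genes whose signal followed each most closely over the 6 arrays are given. They were picked as the highest over the genes past the filter, leaving out unnamed gene models, so high correlations are built into the choice. Each value is a Pearson r over the same 6 arrays. Kit was nearest to Hnrnpll, an RNA-binding protein of lymphocytes, at 0.998, then Tbpl1 at 0.994 and Dmwd at 0.992. Csf3r was nearest to Pygo2 at 0.999, Treml2, a myeloid receptor, at 0.989 and Gorasp2 at 0.986. Cxcl12 was nearest to Slc35c2 at 0.985, Dph7 at 0.982 and Cxcr1, a chemokine receptor of neutrophils, at 0.971. Cxcr4 was nearest to Nkx2-3 at 0.984, Acot10 at 0.983 and Cop1 at 0.983. Angpt1 was nearest to Irs2, a docking protein of the insulin receptor, at 0.991, Ap2s1 at 0.984 and Layn at 0.983. Vcam1 was nearest to Acer3 at 0.986, Utp15 at 0.979 and Nsmce1 at 0.977. Osm was nearest to Gla, the lysosomal alpha-galactosidase, at 0.985, Mrpl2 at 0.984 and Gsto1 at 0.979. None of these 21 genes passed an adjusted p of 0.05 in limma, and the smallest adjusted p was 0.612, for Acer3.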
